A study of Mus musculus with 16 samples.

Results

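The aryl hydrocarbon receptor pathway was followed here through 7 genes: the receptor Ahr, its partner Arnt, the repressor Ahrr, and the target genes Cyp1a1, Cyp1a2, Cyp1b1 and Tiparp. Each gene was taken as the probe set annotated to its symbol, and each of the 7 had a single probe set among the 19505 genes of the array. No measured value entered the choice of probe sets. The study asked which genes of the olfactory mucosa differ after the odour of cigarette smoke. It used S100a5-tauGFP mice, in which green fluorescent protein follows S100a5, a gene of olfactory sensory neurons that depends on their activity. All 4 groups carried this reporter, and no label gives its zygosity. The 24 mice were of both sexes and 7 to 12 weeks old, and each was kept alone in a chamber of clean air for 40 h at 3.1 L/min. From 26 h on, they received pulses of 10 s every 20 min of either cigarette smoke odour or vehicle, which was filtered air. Olfactory mucosa was dissociated and sorted into GFP+ and GFP- cells, and 50 to 100 ng of total RNA was labelled for Clariom S arrays. Each array held cells pooled from 3 mice, so that 8 pools gave 16 arrays in 4 groups of 4: smoke GFP+, vehicle GFP+, smoke GFP- and vehicle GFP-. One line of the series' description names bourgeonal in place of smoke, whereas cigarette smoke is named by the title and by the labels of all 16 arrays, which are used here.

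The aryl hydrocarbon receptor is a ligand-activated transcription factor of the bHLH-PAS family. It rests in the cytosol with heat shock protein 90 and its co-chaperones, and moves to the nucleus when it binds ligands such as dioxins and the polycyclic aromatic hydrocarbons of tobacco smoke. There it pairs with ARNT, and the pair binds the dioxin response element, whose core is a run of 5 bases. Classic targets are the cytochrome P450 genes Cyp1a1, Cyp1a2 and Cyp1b1, whose products oxidise polycyclic hydrocarbons and aromatic amines. Tiparp, a mono-ADP-ribosyltransferase, and Ahrr, which competes for ARNT, are targets that act back on the receptor. In the nose, many P450 enzymes are made by sustentacular cells, the supporting cells of the olfactory epithelium, and by Bowman glands.

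The upstream sequences of 4 target genes are shown because the values below differed among them: Cyp1a1 lay below background, Cyp1a2 was well above it, Tiparp was the member whose smoke and vehicle arrays separated in GFP- cells, and Ahrr lay at the edge of detection. RefSeq promoters of build GRCm38.p6 were matched for 6 of the 7 members (Arnt, Ahrr, Cyp1a1, Cyp1a2, Cyp1b1 and Tiparp). The 250 bases before the annotated start were read 5′ to 3′ on the strand of the gene. Capitals mark the core, GCGTG, on either strand (CACGC when it lies on the other strand) and the TATA box letters TATAAA. Cyp1a1 lies at chr9:57697363-57697612 on the plus strand, Cyp1a2 at chr9:57683656-57683905 on the minus strand, Ahrr at chr13:74292332-74292581 on the minus strand and Tiparp at chr3:65528197-65528446 on the plus strand.
Cyp1a1: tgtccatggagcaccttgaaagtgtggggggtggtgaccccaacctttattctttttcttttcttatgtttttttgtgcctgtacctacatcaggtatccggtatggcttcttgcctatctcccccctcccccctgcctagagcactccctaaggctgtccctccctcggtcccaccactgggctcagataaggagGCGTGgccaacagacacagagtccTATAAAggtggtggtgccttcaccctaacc
Cyp1a2: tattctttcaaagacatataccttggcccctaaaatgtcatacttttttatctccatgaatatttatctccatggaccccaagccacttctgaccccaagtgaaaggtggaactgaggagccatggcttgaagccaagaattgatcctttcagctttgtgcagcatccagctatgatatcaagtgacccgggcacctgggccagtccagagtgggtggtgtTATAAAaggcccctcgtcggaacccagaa
Ahrr: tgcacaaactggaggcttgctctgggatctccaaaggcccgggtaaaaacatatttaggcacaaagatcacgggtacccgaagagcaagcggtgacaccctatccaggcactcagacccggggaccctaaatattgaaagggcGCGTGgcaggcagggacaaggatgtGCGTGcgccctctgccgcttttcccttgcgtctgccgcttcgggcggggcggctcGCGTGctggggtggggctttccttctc
Tiparp: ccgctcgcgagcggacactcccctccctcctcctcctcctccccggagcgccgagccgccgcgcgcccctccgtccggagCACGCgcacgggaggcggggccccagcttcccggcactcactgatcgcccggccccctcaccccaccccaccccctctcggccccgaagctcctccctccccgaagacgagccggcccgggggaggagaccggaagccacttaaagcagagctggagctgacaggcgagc

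The window of Ahrr held 3 matches to the core, those of Arnt, Cyp1a1, Cyp1b1 and Tiparp held 1 each, and that of Cyp1a2 held 0. One of the 3 Ahrr matches, the one nearest to the start, also matched the longer form TNGCGTG, which contains the core. The core was present on either strand in 28.2% of 32851 RefSeq windows of the same length, and the longer form in 4.10%. The TATA letters began at position -30 from the start in Cyp1a1 and at -29 in Cyp1a2, was present in neither strand of the other 4 windows, and was found in 12.4% of all windows. The Tiparp window had a GC content of 75.2% and 28 CG dinucleotides, against medians of 52.4% and 6 over all windows, and those of Cyp1a1 and Cyp1a2 held 3 CG each. A match is a description of letters in this window, and no match says nothing of elements elsewhere.

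**Figure D1:**
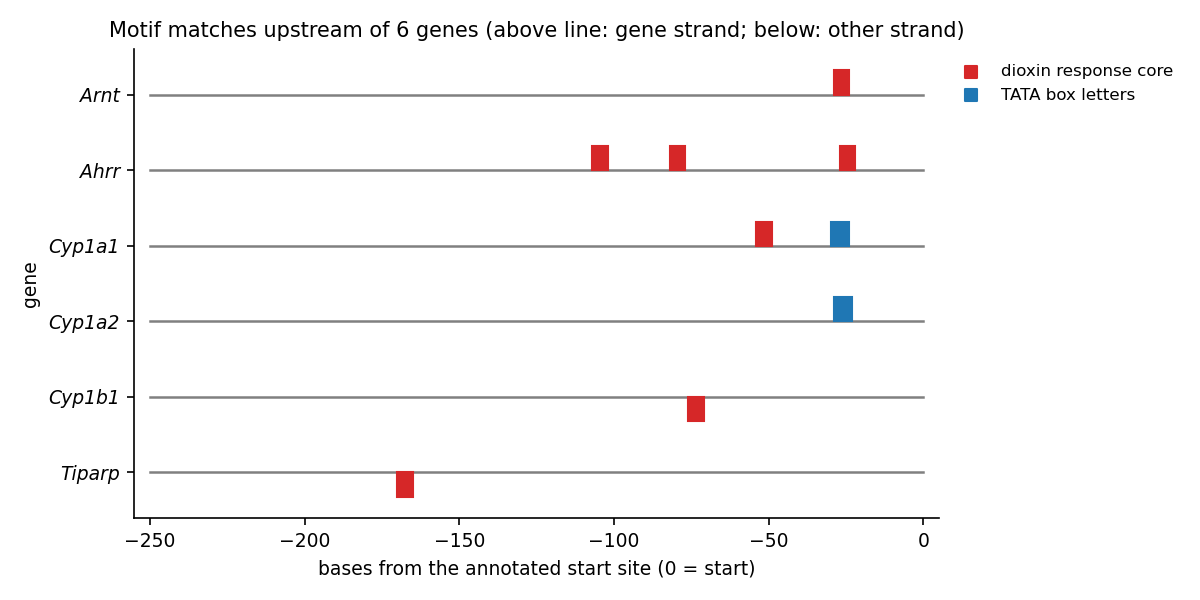
Positions of motif matches in the 250 bases before the annotated start of 6 genes; the x axis is the distance from the start in bases, red boxes mark the response element core, blue boxes mark the TATA letters, and boxes below a line lie on the other strand. Ahrr has 3 red boxes, Cyp1a2 has none, and both Cyp1a genes have a blue box close to the start.

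The deposited values are on a log2 scale and comparable between arrays for 1 gene, but not between genes, since probes differ in brightness. The 321 vomeronasal receptor genes, which belong to another sense organ, served as a measure of background: on each array their 95th percentile, between 6.14 and 6.78, is called the background level here, and a gene at or below it was taken as not above background. Of all genes, 26.8% lay at or below this level on every array and 56.3% above it on every array. S100a5 had group means of 17.02 in smoke GFP+, 16.46 in vehicle GFP+, 15.87 in smoke GFP- and 15.25 in vehicle GFP- cells, higher in GFP+ than in GFP- cells in both exposures. Omp, the marker of mature olfactory sensory neurons, lay between 18.1 and 18.3 on every array, so that neurons were present in both sorted fractions. Of 9 basal cell markers, 8 had a mean at or below the background level in smoke GFP+ cells and 7 in vehicle GFP+ cells. In both GFP- groups 3 did (Krt5, Krt14 and Trp63), and the other 6 lay above it. Arrays of a group correlated at r of 0.988 to 0.995 over all genes. The median over genes of the GFP+ minus GFP- difference was 0.17 in vehicle and 0.15 in smoke mice, whereas the array medians were lower in GFP+ (7.87 to 7.96) than in GFP- cells (8.19 to 8.29).

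The receptor and its partner were above background on all 16 arrays. Ahr read 9.90, 9.71, 9.70 and 9.32 in smoke GFP+ replicates 1 to 4, and 9.93, 9.75, 9.95 and 10.04 in vehicle GFP+. It read 9.71, 9.06, 9.25 and 9.14 in smoke GFP- and 9.09, 9.06, 9.02 and 8.87 in vehicle GFP-. The order of the means was vehicle GFP+ (9.92 ± 0.12, SD, n = 4), smoke GFP+ (9.66 ± 0.24), smoke GFP- (9.29 ± 0.29) and vehicle GFP- (9.01 ± 0.099). Neighbours in this order overlapped, while the vehicle groups at its ends did not. Arnt, the partner of the receptor and of several other bHLH-PAS proteins, was the steadiest member. It read 10.97, 10.94, 10.98 and 10.76 in smoke GFP+ cells, 10.91, 10.88, 10.92 and 10.85 in vehicle GFP+ cells, 10.77, 10.84, 11.11 and 10.85 in smoke GFP- cells and 11.08, 11.02, 11.17 and 10.87 in vehicle GFP- cells. Its group means spanned 10.89 to 11.04, and all neighbouring groups overlapped.

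The repressor Ahrr lay at the edge of detection. Its values were 7.39, 7.04, 6.37 and 6.98 in smoke GFP+ cells, 6.56, 6.99, 6.49 and 6.67 in vehicle GFP+ cells, 6.62, 6.76, 6.63 and 6.65 in smoke GFP- cells and 6.38, 6.92, 6.48 and 6.57 in vehicle GFP- cells. It exceeded the background level on 15 of 16 arrays, by at most 0.77, and smoke GFP+ replicate 3 stood at -0.08 from it. All 4 groups overlapped.

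The 3 CYP1 genes differed from each other in whether they were detected. Cyp1a1, the most widely used marker of receptor activation, was above background on 0 of 16 arrays. It read 4.43, 5.0, 5.19 and 4.59 in smoke GFP+ cells, 4.78, 4.33, 4.85 and 4.84 in vehicle GFP+ cells, 4.74, 4.23, 4.20 and 4.22 in smoke GFP- cells and 4.28, 4.15, 5.09 and 4.04 in vehicle GFP- cells. Its group means stood at -1.76 to -1.91 from the background level. Cyp1b1, the CYP1 enzyme found outside the liver in many tissues, was likewise above background on 0 of 16 arrays, with values of 3.60 to 5.24, and its smoke values (3.60 to 5.24) spanned its vehicle values (4.31 to 5.24). No fold change is given for these 2 genes, because both sides of every comparison lay at background. At this signal a difference between smoke and vehicle in either gene was not detectable, which leaves a low level unmeasured.

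Cyp1a2, an enzyme best known from liver, was well above background on all 16 arrays, by 2.99 to 5.16. It read 9.81, 10.74, 9.55 and 10.64 in smoke GFP+ cells, 9.93, 9.45, 9.96 and 9.97 in vehicle GFP+ cells, 10.42, 10.78, 10.27 and 11.34 in smoke GFP- cells and 10.76, 10.66, 11.08 and 10.79 in vehicle GFP- cells. Smoke GFP+ replicates 2 and 4 lay within the range of the GFP- arrays, and replicates 1 and 3 were within the range of vehicle GFP+. The order of the means was vehicle GFP- (10.82 ± 0.18), smoke GFP- (10.70 ± 0.47), smoke GFP+ (10.18 ± 0.59) and vehicle GFP+ (9.83 ± 0.25), and neighbours overlapped. Tiparp read 9.39, 9.70, 9.52 and 9.48 in smoke GFP+ cells, 9.48, 9.59, 9.38 and 9.67 in vehicle GFP+ cells, 9.54, 9.90, 9.97 and 9.85 in smoke GFP- cells and 10.09, 9.98, 10.16 and 10.27 in vehicle GFP- cells. Its means were 10.13 ± 0.12 in vehicle GFP-, 9.82 ± 0.19 in smoke GFP-, 9.53 ± 0.13 in vehicle GFP+ and 9.52 ± 0.13 in smoke GFP+. Of its neighbouring groups, the 2 GFP- groups did not overlap, and the others did.

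**Figure D2:**
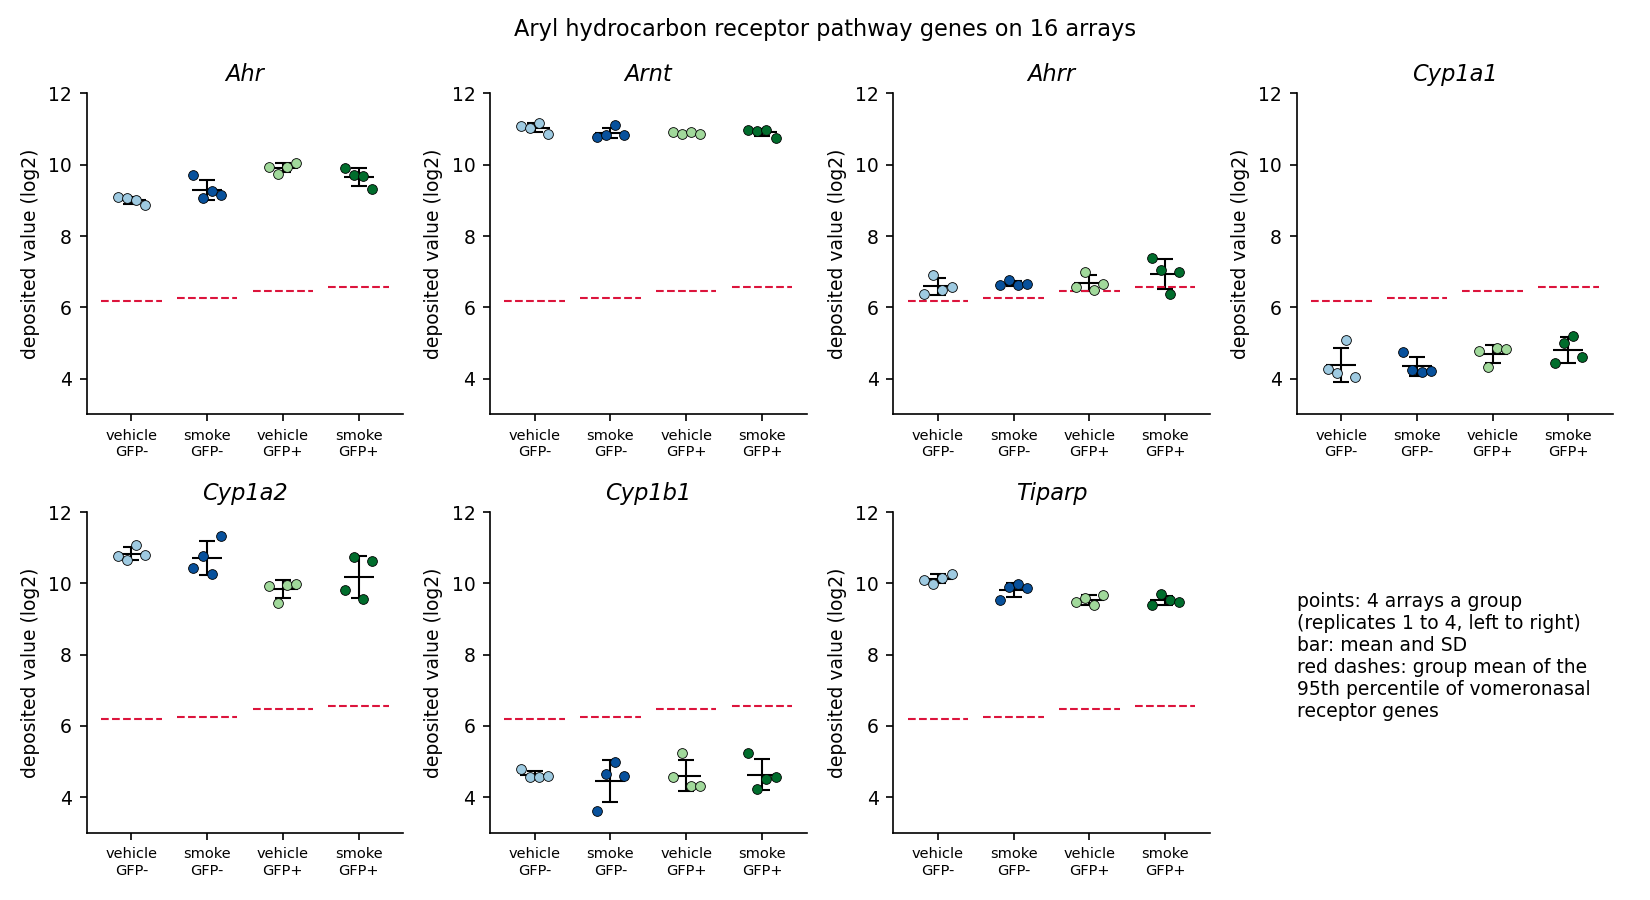
Deposited log2 value (y axis) of the 7 genes on each of 16 arrays, by group (x axis); points are the 4 arrays of a group, black bars the mean and SD, and red dashes the group mean of the background level. Cyp1a1 and Cyp1b1 lie below the dashes in all 4 groups, Ahrr lies close to them, and Ahr, Arnt, Cyp1a2 and Tiparp lie well above.

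In GFP+ cells, the fraction sorted by the reporter, no member of the pathway passed the test for smoke against vehicle. The arrays of both groups overlapped for all 7 members, where 2.99% of all genes (584 of 19505) did not overlap. The GFP+ fraction did not hold the RNA of neurons alone: Cyp2g1, a sustentacular P450 gene, was above background on all its arrays. The largest differences were +0.35 for Cyp1a2, +0.27 for Ahrr and -0.26 for Ahr on the log2 scale. The limma test called 0 of 7 members at an adjusted p of 0.05, against 0.108% of all genes (21 of 19505). Unadjusted p-values under 0.05 were found for 936 genes and for 0 of the 7 members. Ahr differed by -0.26 (SE 0.15, 95% interval -0.57 to 0.05, limma adjusted p = 0.999), and an exact two-sided permutation test on its arrays gave p = 0.0571, where 4 against 4 arrays can reach 0.0286. Without smoke pools 2 and 4 this difference was -0.12, and with the sustentacular marker mean as a covariate it was -0.13. Arnt differed by 0.019 (interval -0.20 to 0.24) and Tiparp by -0.01 (interval -0.26 to 0.24). Ahrr differed by 0.27 (interval -0.11 to 0.65, exact p = 0.343), and by 0.12 without smoke GFP+ replicate 1 and 0.46 without smoke GFP+ replicate 3, the ends of its range over arrays left out.

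Cyp1a2 in GFP+ cells differed by 0.35 (SE 0.26, interval -0.20 to 0.90, limma adjusted p = 0.999, exact p = 0.371). This difference followed smoke GFP+ replicates 2 and 4, the same arrays on which sustentacular markers were high. The mean of 13 sustentacular markers, a list that leaves out Cyp1a2, was 10.52, 11.11, 10.63 and 11.37 on smoke GFP+ replicates 1 to 4 and 10.43 to 10.75 on the vehicle GFP+ arrays. With this mean as a covariate the difference was -0.11 (SE 0.15), and without smoke pools 2 and 4 it was -0.15 (SE 0.18), so that its direction turned. Smoke GFP+ replicates 2 and 4 also held the highest Cyp1a2 values of their group. Leaving these pools out therefore had to lower the difference. The marker list holds Cyp2g1 and Cyp2a5, which were among the 3 genes most like Cyp1a2 over the 16 arrays (r = 0.94 each). The covariate thus follows Cyp1a2 closely, and nothing is concluded from either fit. Leaving out each array in turn gave 0.17 (without smoke GFP+ replicate 2) to 0.56 (without smoke GFP+ replicate 3). In bulk RNA, fewer cells of a type and less RNA per cell cannot be told apart.

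In GFP- cells, which hold neurons outside the gate, supporting cells and immune cells, Tiparp was the member with the most distinct values. All 4 smoke arrays lay below all 4 vehicle arrays, and the means differed by -0.31, a ratio of 0.806 (SE 0.12, 95% interval -0.56 to -0.06). The exact two-sided test gave p = 0.0286, the smallest it can give, and limma's adjusted p over all genes was 0.776. Among all genes, 1.3% separated downwards and 2.73% in either direction. Immune markers ran beside it: all 17 had a lower mean in smoke than in vehicle GFP- cells (median -0.27, 0 of 17 past the threshold). Other lists leaned the same way with 0 genes past the threshold: 13 of 14 Bowman gland and respiratory markers had a lower mean (median -0.54), as did 11 of 13 endothelial and stromal (-0.15), 8 of 9 basal (-0.11), 8 of 10 microvillar (-0.12) and 8 of 13 sustentacular markers (-0.14), against 9285 of 19505 genes. The part of these cell types in the Tiparp difference was not tested, and the covariate fits that follow use markers read from the same RNA. With the sustentacular mean as a covariate the Tiparp difference was -0.30 (SE 0.12). The immune mean was 12.2 to 13.2 on smoke GFP- arrays and 12.7 to 13.3 on vehicle GFP- arrays. With the immune mean as a covariate, a fit chosen after seeing the data, the Tiparp difference was -0.19 (SE 0.11). Leaving out each array in turn gave -0.36 to -0.22.

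The limma test called 0 of 7 members in GFP- cells, against 0.128% of all genes (25 of 19505), and 1115 genes, Tiparp among them, had an unadjusted limma p under 0.05. Ahr was higher by 0.28 (SE 0.15, interval -0.03 to 0.59, limma adjusted p = 0.876, exact p = 0.0857), with smoke replicate 1 at 9.71 the highest of the 8 arrays. Leaving out each array in turn gave 0.14 (without smoke GFP- replicate 1) to 0.36 (without smoke GFP- replicate 2). Without smoke pools 2 and 4 the Ahr difference was 0.47 (SE 0.15, limma adjusted p = 0.869). Arnt differed by -0.14 (interval -0.36 to 0.07) and Ahrr by 0.08 (interval -0.30 to 0.46). Cyp1a2 differed by -0.12 (interval -0.68 to 0.43), and by -0.48 (SE 0.18, limma adjusted p = 0.880) without smoke pools 2 and 4. Smoke GFP- replicates 2 and 4 held the lowest Ahr and the highest Cyp1a2 values of their group. Leaving these pools out therefore had to raise the Ahr difference and lower that of Cyp1a2, and nothing is concluded from it.

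**Figure D3:**
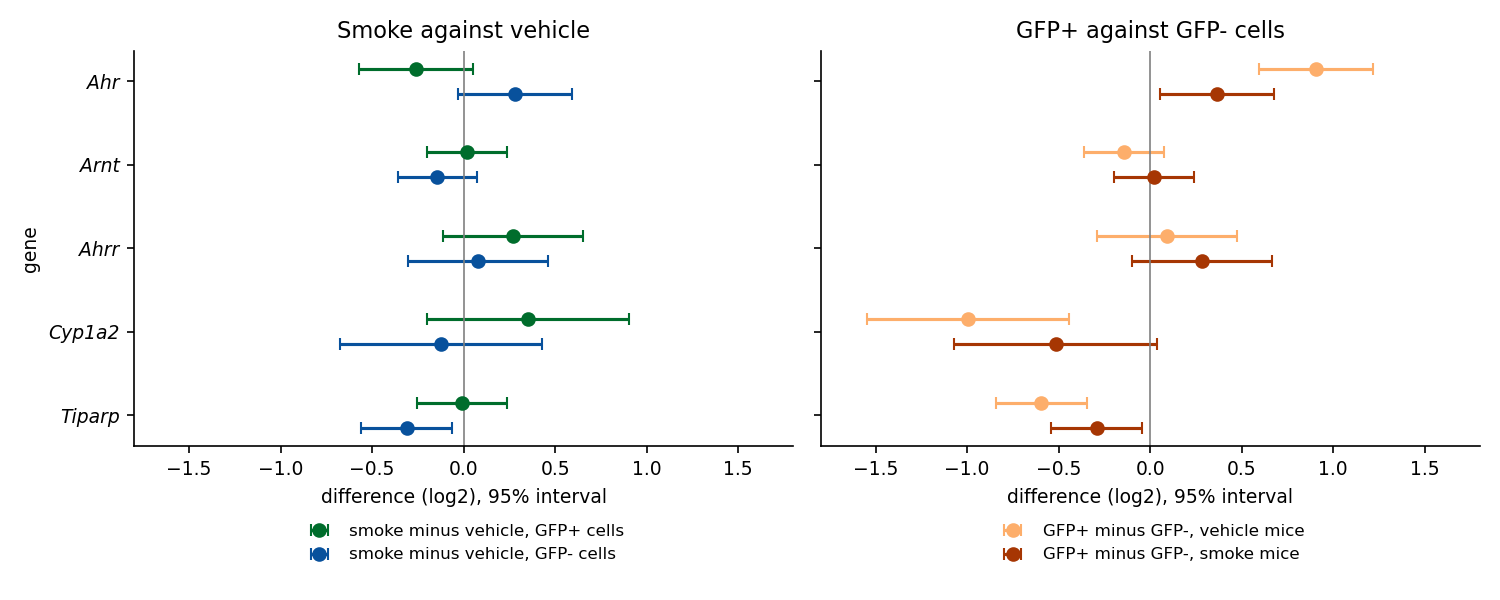
Differences on the log2 scale (x axis) of the 5 genes above background, with limma 95% intervals; the left panel gives smoke minus vehicle in each fraction, the right panel GFP+ minus GFP- in each exposure. On the left, only the interval of Tiparp in GFP- cells (-0.56 to -0.06) leaves out 0; on the right, the vehicle intervals of Ahr, Cyp1a2 and Tiparp do, as do the smoke intervals of Ahr and Tiparp.

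The design pairs a GFP+ and a GFP- array of the same mice, so that the effect of smoke can be compared between the fractions within pools. For Ahr the GFP+ minus GFP- difference was 0.19, 0.65, 0.44 and 0.18 in smoke pools 1 to 4, against 0.84, 0.68, 0.93 and 1.17 over the vehicle pools. GFP+ cells had more Ahr than GFP- cells in all 8 pools, and all smoke pools lay below all vehicle pools. The smoke effect on Ahr in GFP+ cells minus that in GFP- cells was -0.54 (SE 0.21, interval -0.98 to -0.10). The exact two-sided test over pools gave p = 0.0286, the smallest it can give, and limma's adjusted p over all genes was 0.825. The limma values of this comparison came from the fit of 4 group means, which leaves the pairing out. With the pool as replicate block, which fits the pairing, the Ahr SE was 0.17 (limma adjusted p = 0.476). With the sustentacular mean as a covariate the Ahr difference was -0.37 (SE 0.21), and without smoke pools 2 and 4 it was -0.59 (SE 0.22).

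Cyp1a2 separated the pools in the opposite direction. Its GFP+ minus GFP- difference was -0.61, -0.04, -0.72 and -0.70 over the smoke pools, against -0.83, -1.21, -1.12 and -0.81 over the vehicle pools. The smoke effect was higher in GFP+ cells by 0.48 (SE 0.37, exact p = 0.0286, limma adjusted p = 0.919). With the pool as replicate block its SE was 0.19 (limma adjusted p = 0.599). It was -0.11 (SE 0.21) with the sustentacular mean as a covariate, and 0.33 (SE 0.25) without smoke pools 2 and 4. Nothing is concluded from the covariate fit, since its marker list holds Cyp2g1 and Cyp2a5. Leaving out each array in turn gave 0.29 (without smoke GFP+ replicate 2) to 0.69 (without smoke GFP+ replicate 3 or smoke GFP- replicate 4). For Tiparp smoke pools gave -0.15, -0.20, -0.45 and -0.38 and vehicle pools -0.62, -0.38, -0.78 and -0.60, which overlap (difference 0.30, SE 0.17, exact p = 0.0571, limma adjusted p = 0.876). Arnt (0.16, interval -0.15 to 0.47) and Ahrr (0.19, interval -0.35 to 0.73) overlapped too. The limma test called 0 of 7 members for this difference, against 0.174% of all genes (34 of 19505), with 1114 genes at an unadjusted p under 0.05. The pools did not overlap for 2 of the 7 members, against 4.75% of all genes.

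**Figure D4:**
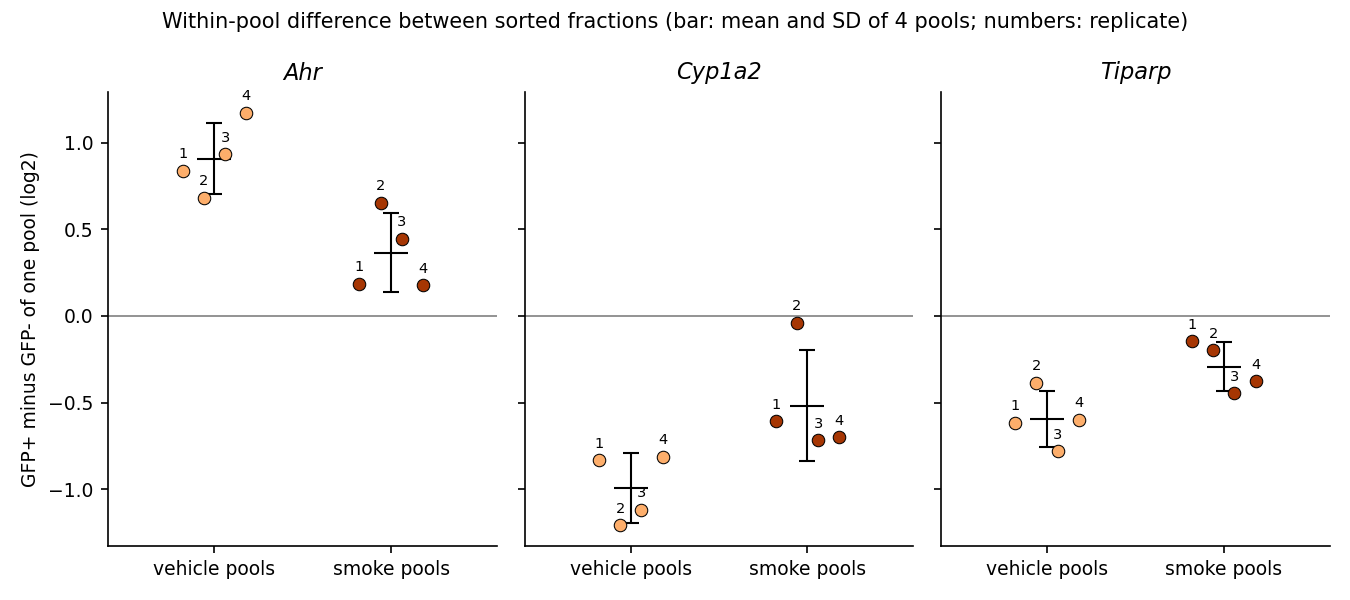
GFP+ minus GFP- difference within each pool (y axis, log2) for Ahr, Cyp1a2 and Tiparp, in 4 vehicle and 4 smoke pools (x axis); numbers are replicates and bars the mean and SD. Smoke pools lie below vehicle pools for Ahr and above them for Cyp1a2, with no overlap in either, while the Tiparp pools overlap.

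The fractions themselves differed in 3 members in vehicle mice. Ahr was higher in GFP+ than in GFP- cells by 0.91, or 1.88-fold (SE 0.15, limma adjusted p = 1.18e-04). Cyp1a2 was lower (-0.99, a ratio of 0.502, SE 0.26, limma adjusted p = 0.00636), and Tiparp was lower (-0.60, a ratio of 0.662, SE 0.12, limma adjusted p = 7.16e-04), a call lost with arrays centred on their medians (-0.25, adjusted p = 0.0550). Each held in 4 of 4 vehicle pools. The share of all genes called was 39.6% (24.2% higher and 15.4% lower), so 3 of 7 is near the background, and the exact test over 4 pools cannot go below 0.125. Arnt differed by -0.14 (adjusted p = 0.285), and by +0.20 with arrays centred on their medians. Ahrr differed by 0.09 (adjusted p = 0.712), and was called at 0.44 (adjusted p = 0.0468) with that centring. Relative to the median difference over all genes, Ahr stood at 0.74, Ahrr at -0.08, Arnt at -0.31, Tiparp at -0.76 and Cyp1a2 at -1.16.

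In smoke mice the same 3 genes had smaller values of the same sign, and none passed the threshold; the test of the change between exposures is the within-pool comparison above. Ahr differed by 0.37 (adjusted p = 0.0674), Tiparp differed by -0.29 (adjusted p = 0.0661) and Cyp1a2 by -0.52 (adjusted p = 0.139), each in 4 of 4 pools, except that with centred arrays Tiparp stood at +0.030. The limma test called 0 of 7 members, against 32.7% of all genes (18.3% higher and 14.4% lower). With the pool as replicate block, which fits the pairing of arrays, 2 members were called: Ahr (adjusted p = 0.0424) and Cyp1a2 (adjusted p = 0.0160), while Tiparp was not (adjusted p = 0.0575). The share of all genes called by that fit is not given here, and nothing particular to the members is read from this count. Ahrr differed by 0.28 (adjusted p = 0.242) and Arnt by 0.02 (adjusted p = 0.899). Calls also depended on single libraries: Ahr passed without smoke GFP+ replicate 4 (0.48, adjusted p = 0.0217) or smoke GFP- replicate 1 (0.51, adjusted p = 0.00906). Tiparp passed without smoke GFP+ replicate 2 (-0.35, adjusted p = 0.0461) or smoke GFP- replicate 1 (-0.38, adjusted p = 0.0185), and Ahrr without smoke GFP+ replicate 3 (0.47, adjusted p = 0.0312).

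Markers of other cell types moved with these differences. In vehicle mice 6 of 12 mature neuron markers were higher in GFP+ cells and 0 lower (median 0.32), against 24.2% of all genes higher and 15.4% lower. Lower in GFP+ cells were 16 of 17 immune (median -5.47), 10 of 10 microvillar (-2.96), 5 of 9 basal (-1.24), 4 of 14 Bowman gland and respiratory (-0.66) and 4 of 9 immature neuron markers (-0.24), and 0 of these lists' markers were higher. Of the sustentacular markers, 7 of 13 were lower and 1 higher (median -0.69). In smoke mice, 3 of 13 sustentacular markers were lower and 1 higher (median -0.07). Of the sustentacular markers, 12 of 13 were above background in every group, and Cyp4a12a in none. All 17 immune markers were above background in both GFP- groups, and Cd79a, Cd79b and Cd3e were not in either GFP+ group. The immune mean ran from 7.92 to 8.49 on GFP+ arrays and from 12.2 to 13.3 on GFP- arrays. All these lists moved beside the differences of Ahr, Cyp1a2 and Tiparp, and the part of these cells in them was not tested. The covariate fits given above use markers from the same RNA and cannot tell cell numbers from RNA per cell.

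**Figure D5:**
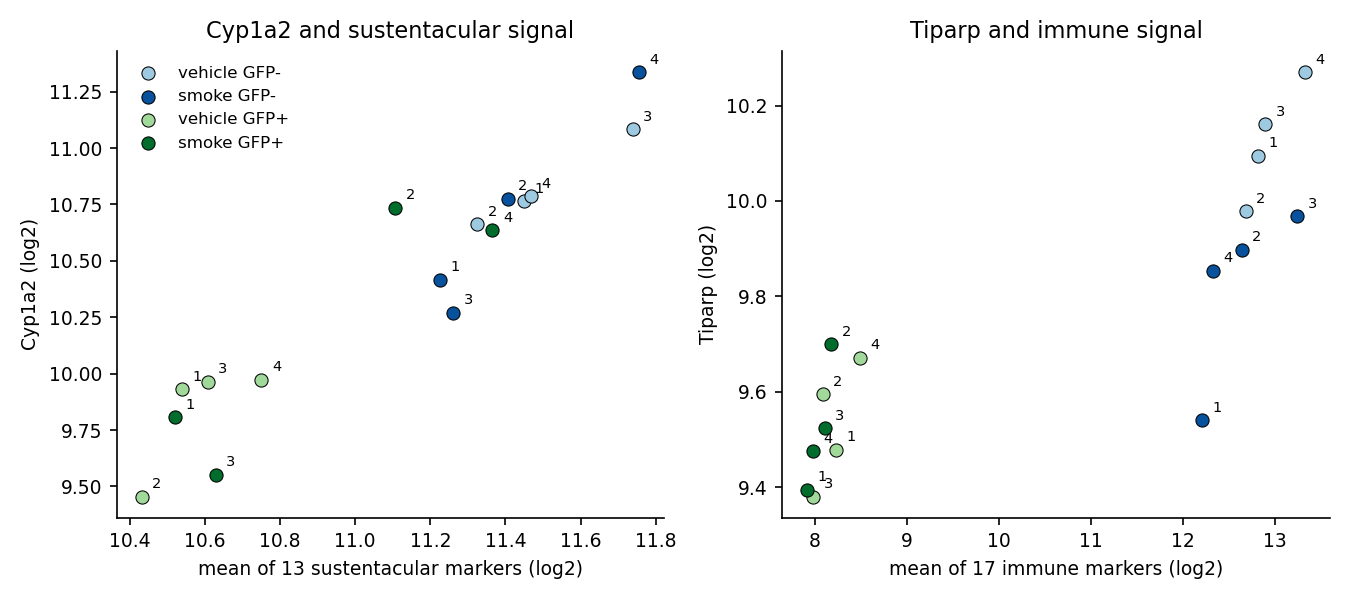
Left, Cyp1a2 against the mean of 13 sustentacular markers, and right, Tiparp against the mean of 17 immune markers, all log2, with 1 point per array coloured by group and numbered by replicate. Smoke GFP+ replicates 2 and 4 stand apart from the other GFP+ arrays in both Cyp1a2 and the sustentacular mean, and smoke GFP- replicate 1 has the lowest Tiparp and the lowest immune mean of the GFP- arrays.

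The genes whose values ran most like each member over the 16 arrays were ranked by Pearson's r among all genes, as a description over arrays that share the sort and the pools. Cyp1a2 was most like Aqp4 (r = 0.96), a water channel, and the sustentacular P450 genes Cyp2g1 (0.94) and Cyp2a5 (0.94). Ahr was most like Tbc1d30 (0.96), Siah3 (0.95) and Prkaa2 (0.95), the latter a catalytic subunit of AMP-activated kinase. Tiparp was most like Xrn2 (0.94), Nlrc4 (0.93) and Arf6 (0.93), of which Nlrc4 is an inflammasome gene. Arnt was most like Brd9 (0.85), Gins3 (0.83) and Ythdf3 (0.74). Ahrr, near background, was most like Aldh1a3 (0.83), Defb7 (0.82) and Lce3d (0.81).

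Wider parts of the pathway were read from 6 gene lists, and in smoke against vehicle 0 genes of any list were called in either fraction or in their difference. With a variance trend in the fit, 2 were called higher in GFP+ cells: Nqo1 (0.56, limma adjusted p = 0.0338), a quinone reductase in both target lists, and Pgd (0.61, limma adjusted p = 0.0433), an enzyme of the pentose phosphate pathway in the NRF2 list. Of 14 other receptor targets 10 were measured, with a median of 0.06 in GFP+ and 0.09 in GFP- cells, beside -0.0044 and 0.011 over all genes. Aldh3a1 and Gsta2, both detoxifying enzymes induced through the receptor in liver, were at or below background in all 4 groups. The 10 measured genes of the cytosolic complex and coactivators had medians of -0.09 and 0.03, and the 13 bHLH-PAS relatives 0.06 and -0.10. The 10 enzymes that turn tryptophan into receptor ligands had medians of -0.10 and -0.04, and the 6 measured genes for electron donors, haem supply and epoxide hydrolases 0.10 and -0.0031. The 20 measured targets of NRF2, a regulator that shares targets with the receptor, had medians of 0.15 and 0.05.

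Between the fractions, the counts of these lists stand beside 24.2% of all genes called higher and 15.4% lower in vehicle mice, and 18.3% and 14.4% in smoke mice, and nothing particular to a list is read from them. Among the 10 other receptor targets in vehicle mice, 2 were higher and 2 lower in GFP+ cells. Cyp2s1, an extrahepatic P450, was higher by 0.84 (limma adjusted p = 3.31e-04) and Nfe2l2, which encodes NRF2, by 0.64 (0.00743). Socs2, a suppressor of cytokine signalling, was lower (-0.82, 2.07e-04). Serpinb2, a plasminogen activator inhibitor, was not above background on any GFP+ array and was at least 2.38-fold higher in GFP- cells, measured against the background level. In smoke mice 3 were higher and 2 lower, and Cd36, a fatty acid receptor, joined the higher ones by 0.33.

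In the receptor's complex, Ncoa1, a coactivator (0.55), and Src, a kinase (0.51), were higher in GFP+ cells of vehicle mice. Med1, a Mediator subunit, was lower there (-0.31), but at +0.034 with arrays centred on their medians, and lower in smoke mice (-0.47). In smoke mice 0 of 10 of this list were higher and 1 lower. Of the 13 bHLH-PAS relatives, 3 were higher and 1 lower in vehicle mice, among them the clock partners Arntl (0.41) and Clock (0.36). Arnt2, the neural paralogue of Arnt, was called lower, and it was above background on 1 of 4 vehicle GFP+ and 4 of 4 vehicle GFP- arrays. Sim1 passed the test although it was above background on 0 of 16 arrays. In smoke mice 3 were higher and 0 lower: Arntl2, above background on 3 of 4 smoke GFP+ arrays, Npas1, on 1 of 4, and Npas4, on 0 of 4.

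Of the 10 tryptophan enzymes, 1 was higher and 4 lower in GFP+ cells of vehicle mice, and 0 were higher and 4 lower in smoke mice. Kynu and Afmid, counted as lower in both, were above background on 0 GFP+ arrays. Each was above it on 2 of 4 smoke GFP- and 4 of 4 vehicle GFP- arrays. Haao, a dioxygenase late in the kynurenine pathway, was lower, at -2.10 in vehicle and -2.04 in smoke mice, and was above background on 2 of 4 smoke GFP+ arrays. Kmo, the kynurenine 3-monooxygenase, was not above background on any GFP+ array and was at least 2.06-fold higher in GFP- cells of vehicle mice and 1.74-fold in smoke mice. Kyat3, a kynurenine aminotransferase, was higher by 0.60 in vehicle mice. Ido1, Ido2 and Tdo2, whose products open this pathway, were at or below background in all 4 groups. Of the 6 genes of the electron donor list, 2 were lower in vehicle and 2 in smoke mice. Alas1, the first enzyme of haem synthesis, was lower, by -0.92 in vehicle and -0.85 in smoke mice. Cyb5a, an electron donor to P450 enzymes, was lower, by -0.49 in vehicle and -0.31 in smoke mice, the latter at +0.012 with centred arrays. Of the 20 NRF2 targets, 3 were higher and 12 lower in vehicle mice and 2 higher and 8 lower in smoke mice. Osgin1, counted as lower in both, and Akr1b8, counted in vehicle mice, were above background on 0 arrays, and Gstm1 (-1.15 and -0.62) is also in the sustentacular list. Cat (catalase) was lower in GFP+ cells, at -3.34 and -3.08, Ftl1 (ferritin light chain) at -2.05 and -1.85, Gsr (glutathione reductase) at -1.90 and -1.58, and Slc7a11 (a cystine transporter) at -2.53 and -2.43, in vehicle and smoke mice respectively. Slc7a11 was above background on 2 of 4 smoke GFP+ arrays.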

How the data were processed

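The deposited table holds log2 values of 16 Clariom S arrays (4 groups of 4). Per the submitters' processing notes the authors used Affymetrix Expression Console; the algorithm, the annotation and the build were not named in them. Genes were named from the platform annotation (19572 of 28846 probe sets with 1 symbol, 0 with several), with the probe set of highest mean per symbol. Comparisons used limma 3.58.1 (R 4.3.3; lmFit, contrasts.fit, eBayes) on 16 arrays with 4 group means and 5 contrasts, Benjamini-Hochberg adjustment over 19505 genes at 0.05, and exact permutation tests over arrays or pools. The fit was tested on simulated data with independent arrays, which did not hold the pairing of arrays by pool. Nothing says how mice were assigned to pools; the number of arrays limits precision. GFP+ and GFP- arrays of 1 number come from the same mice (24 mice in 8 pools of 3). They were taken as paired in the exact tests between fractions and in the replicate block, but not in the fit of 4 group means. The deviations from group means of such pairs correlated at 0.045 to 0.22. Smoke and vehicle arrays that only share a number correlated at -0.084 to 0.20. Members and gene lists were chosen with earlier results of these data known. The plan was to name pathway genes past the threshold (up to 4 per list and comparison, by smallest p), and it was not followed strictly. Further called genes, genes at background and genes called only under another setting are named as well. Alternatives were normalization, a filter on low values, samples in the fit, a variance trend, the mean of probe sets, left-out arrays, a replicate block, and cell markers as covariates.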

Additional observations from a re-analysis of the deposited data

Results flagged for a closer look

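In 5 of 28 groups of 4 arrays, 1 array stood far from the other 3 of its group, with a gap to the nearest array above 0.829 of the range; chance gives about 1 in 20 groups. Cyp1a2 in vehicle GFP+ replicate 2 was 9.45, below the nearest array at 9.93. Ahrr in smoke GFP- replicate 2 was 6.76, above the nearest at 6.65. The other 3 were at background: Cyp1a1 was 4.33 in vehicle GFP+ replicate 2 and 4.74 in smoke GFP- replicate 1, and Cyp1b1 was 4.79 in vehicle GFP- replicate 1.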

How the results depend on the processing

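Over 26 settings, 455 values of members were recomputed: 423 kept their direction and side of the threshold, 1 lost its call, 15 gained one and 16 turned direction. Of 546 counts for the 6 lists, 511 stayed within 1.5 times. Genes past the threshold in GFP+ cells numbered 21, 34 with a variance trend, 5 without smoke pools 2 and 4, and 14 to 27 leaving out each array. In GFP- cells they numbered 25, 8 with the compared groups only, 7 without those pools and 13 to 28 leaving out each array (16 without smoke GFP- replicate 2, 13 without vehicle GFP- replicate 1 and 14 without vehicle GFP- replicate 2). For the difference of effects they numbered 34, 9 without those pools and 25 to 37 leaving out each array. With arrays centred on their medians the sort called 15086 in place of 7726 genes in vehicle and 14268 in place of 6373 in smoke mice; the share higher among them went from 61.2% to 85.0% and from 56.1% to 85.3%, and the median difference over all genes to 0.51 and 0.47. Members called in the smoke sort numbered 0, but 2 with quantile normalization (Ahr, Ahrr), where 4837 of all genes were called higher and 2637 lower. They numbered 4 with centring (Ahr, Arnt, Ahrr and Cyp1a1, the last at background on all arrays) and 2 with a filter on low values (Ahr, Tiparp). They numbered 2 with the replicate block and 0 to 2 leaving out each array, where 4898 to 6474 of all genes were called. In the vehicle sort members called numbered 3, and 4 with centring (Ahr, Ahrr, Cyp1a2 and Cyp1a1) or without vehicle GFP- replicate 3, which added Cyp1a1. Nothing particular to the members is read from these counts.

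Directions turned as follows. Tiparp in GFP+ cells was 0.0082 with quantile normalization, 0.049 with the immune mean as a covariate (added later) and -0.067 to 0.039 leaving out each array. Cyp1a2 in GFP+ cells was -0.11 with the sustentacular covariate and -0.15 without smoke pools 2 and 4; its difference of effects was -0.11 with that covariate. Centring put Arnt at 0.20 in the vehicle sort and Tiparp at 0.030 in the smoke sort. Leaving out each array gave Arnt -0.0027 to 0.068 in GFP+ cells and -0.022 to 0.092 in the smoke sort, Cyp1a2 -0.34 to 0.018 in GFP- cells and Ahrr -0.013 to 0.20 in the vehicle sort. The cause was not tested. For smoke against vehicle the replicate block, on numbers that smoke and vehicle arrays only share (correlations of deviations -0.084 to 0.20), called 27 and 29 genes and 0 of 7 members; beside the 2 members of the smoke sort it changed no other call of a member. Signal near background limits Ahrr, Cyp1a1 and Cyp1b1.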

Other observations

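Nqo1, a quinone reductase that is a target of both the receptor and NRF2, was singled out after its values were seen. It read 16.11, 16.15, 16.33 and 16.32 in smoke GFP+ cells and 15.71, 15.66, 15.39 and 15.92 in vehicle GFP+ cells, and 16.01, 15.92, 16.07 and 16.31 in smoke GFP- cells and 15.53, 15.67, 15.32 and 15.67 in vehicle GFP- cells. All smoke arrays lay above all vehicle arrays in each fraction. The difference was 0.56 in GFP+ cells (limma adjusted p = 0.210) and 0.53 in GFP- cells (limma adjusted p = 0.276), neither past the threshold, and the difference between the fractions was 0.03. Of all genes, 1.66% separated upwards in GFP+ cells and 1.43% in GFP- cells.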
